A study of Mus musculus with 6 samples.

Results

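The cells described here were keratocytes of the mouse cornea that carried RNA of an inflammatory set of 4 genes, Saa3, Lcn2, Chil1 and Mmp3. They were chosen by their own counts of unique molecular identifiers (UMIs), each UMI standing for 1 captured RNA molecule. A barcode entered the keratocyte gate with at least 500 UMIs, at least 250 genes and at most 20% mitochondrial UMIs. It also needed at least 5 UMIs of the stromal genes Dcn, Lum, Kera and Col1a2, at least 5 times as many of these as of the epithelial genes Krt5, Krt12 and Perp, and at most 1 UMI of the immune genes Tyrobp, Fcer1g and Cd74. A gated keratocyte was called marker-positive when at least 2 of the 4 markers were detected with at least 3 UMIs in sum. This gave 2098 marker-positive cells, which were 5.22% of the 40209 gated keratocytes and 3.33% of the 63021 barcodes past the depth filters. They were set against the 35485 gated keratocytes with no UMI of any of the 4 markers, called marker-negative. The other 2626 keratocytes, with 1 marker or with fewer than 3 marker UMIs, were kept out of both classes and are called the between class.

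All libraries came from naive female mice of a mixed background, given as 129S2–C57BL/6-mixed. They were either wild type (WT) or knockout for the microRNA cluster of miR-183, miR-96 and miR-182 (KO, miR-183C GT/GT in the labels), with controls matched for age and sex. Whole corneas cut anterior to the limbus were studied in WT and KO mice at 2 months and at 6 months. At 6 months a fraction enriched on magnetic beads for the leukocyte protein CD45, named CRIC in the labels, was also prepared from each genotype. Cells were freed with collagenase A plus DNase I and captured with the 10x Genomics 3' v2 kit, per the labels. Each of the 6 groups held 1 library, and how many mice stood behind a library is not stated in the labels. The deleted microRNAs were not analysed here, so the genotype rests on the labels.

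Keratocytes are the quiet fibroblast-like cells that lay down and keep the transparent collagen and proteoglycan stroma of the cornea. After injury or infection they can turn into activated cells that secrete chemokines, proteases and acute-phase proteins. Of the 4 markers, Saa3 is an acute-phase serum amyloid A protein made outside the liver, and Lcn2 is a lipocalin that withholds iron by binding bacterial siderophores. Chil1 is a chitinase-like lectin without enzymatic activity that is secreted by inflamed connective tissue, and Mmp3 is a stromelysin that cleaves proteoglycans and activates other matrix metalloproteinases.

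The 3 deleted microRNAs are shown because their loss defines the KO libraries, with the seed, bases 2 to 8, in capitals. The sequences are from RefSeq on build GRCm38.p6 and lie on the minus strand of chromosome 6, at chr6:30165962-30165986, chr6:30169506-30169528 and chr6:30169711-30169732.
miR-182-5p: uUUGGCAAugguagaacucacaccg
miR-96-5p: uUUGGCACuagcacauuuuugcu
miR-183-5p: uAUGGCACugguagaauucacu
The seeds of miR-96-5p and miR-182-5p shared their first 6 bases, and that of miR-183-5p differed from the seed of miR-96-5p in its first base.

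The promoters of the 4 markers are shown because the markers define the cells and were detected together in them. On build mm10 with GENCODE M21, all 4 are protein-coding genes on different chromosomes: Saa3 at chr7:46711998-46715700 (minus strand), Lcn2 at chr2:32384633-32388252 (minus), Chil1 at chr1:134182176-134190181 (plus) and Mmp3 at chr9:7445822-7455975 (plus). Each sequence below is from RefSeq on build GRCm38.p6 and runs 5' to 3' on the gene's strand, from 250 bases before to 50 bases after the RefSeq start. That start differs from the GENCODE start for Saa3, Lcn2 and Chil1, and the Lcn2 window lies wholly inside the GENCODE gene. The windows are chr7:46715627-46715926, chr2:32387690-32387989, chr1:134181906-134182205 and chr9:7445572-7445871, in the order printed. Capitals mark matches, on either strand, to 4 motifs of factors that act in inflammation: C/EBP (TTNNGCAA), AP-1 (TGANTCA), STAT (TTCNNNGAA) and the NF-kB motif, which has 10 letters.
Saa3: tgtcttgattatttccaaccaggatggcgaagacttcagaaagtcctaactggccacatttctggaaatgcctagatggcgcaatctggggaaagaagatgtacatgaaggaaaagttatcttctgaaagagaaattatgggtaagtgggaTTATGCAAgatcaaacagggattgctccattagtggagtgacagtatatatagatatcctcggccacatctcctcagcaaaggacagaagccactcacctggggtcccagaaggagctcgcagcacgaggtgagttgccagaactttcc
Lcn2: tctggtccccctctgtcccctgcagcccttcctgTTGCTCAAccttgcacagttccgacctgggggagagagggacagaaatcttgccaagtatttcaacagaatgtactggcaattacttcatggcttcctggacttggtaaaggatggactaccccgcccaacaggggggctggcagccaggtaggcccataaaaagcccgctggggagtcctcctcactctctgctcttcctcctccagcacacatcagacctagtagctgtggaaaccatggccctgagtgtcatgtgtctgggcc
Chil1: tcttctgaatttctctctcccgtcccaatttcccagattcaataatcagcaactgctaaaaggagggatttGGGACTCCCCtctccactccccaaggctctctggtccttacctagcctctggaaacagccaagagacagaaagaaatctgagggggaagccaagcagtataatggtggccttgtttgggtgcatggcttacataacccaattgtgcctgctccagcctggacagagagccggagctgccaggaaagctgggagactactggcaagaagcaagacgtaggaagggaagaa
Mmp3: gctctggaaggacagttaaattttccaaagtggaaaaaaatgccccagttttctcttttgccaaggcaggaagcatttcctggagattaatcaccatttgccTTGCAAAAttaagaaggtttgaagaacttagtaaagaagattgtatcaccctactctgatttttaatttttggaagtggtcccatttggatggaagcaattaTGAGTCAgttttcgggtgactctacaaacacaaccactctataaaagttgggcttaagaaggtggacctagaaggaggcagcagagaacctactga
Counted from the RefSeq start, a C/EBP match began at position -99 for Saa3, -216 for Lcn2 and -148 for Mmp3, and 10.8% of all 32841 promoters of this length held one. The C/EBP motif was first searched in the looser form TTNNGNAA and was narrowed after 40.7% of promoters were seen to hold it. Mmp3 also had an AP-1 match at -46 (7.81% of promoters held one), and Chil1 had an NF-kB match at -179 (4.51%). The STAT motif, held by 8.30% of promoters, was in none of these 4 windows. A match is a run of letters, not a shown binding site.

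The libraries differed in depth. Total UMIs ranged from 9827933 in WT CRIC to 117613142 in WT cornea at 6 months, and the KO cornea library of 6 months held 33127813. Marker-negative keratocytes had medians of 5121 UMIs in WT cornea and 1703 in KO cornea at 6 months. In the KO library of 6 months ribosomal protein genes took 9.79% of the UMIs of marker-negative keratocytes, against 13.3% to 15.2% in the other 5 libraries, while in epithelial cells the 2 cornea libraries of 6 months both stood at 10.3%. The 2-month KO library, labelled female, held 1419 UMIs of Y-linked genes in marker-negative keratocytes against at most 2 in each of the other 5. It contributed 8 of the 2098 marker-positive cells. Pairs of libraries shared 2 to 34 cell barcodes, and no shared barcode was a marker-positive cell in both. No doublet caller was run.

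Of the 2098 marker-positive cells, 2007 (95.7%) were in the KO cornea library of 6 months. There they were 23.4% of the 8572 gated keratocytes (95% exact binomial interval 22.5% to 24.3%). In WT cornea of the same age they were 43 of 11190 keratocytes (0.384%, 0.278% to 0.517%). At 2 months they were 8 of 8203 keratocytes in KO cornea (0.0975%, 0.0421% to 0.192%) and 3 of 10322 in WT cornea (0.0291%, 0.00599% to 0.0849%), and these intervals overlapped. The CRIC libraries also held keratocytes that had come through the CD45 enrichment. Among these, 36 of 1059 were marker-positive in KO (3.40%, 2.39% to 4.68%) and 1 of 863 in WT (0.116%, 0.00293% to 0.644%). At 6 months the KO share was thus above the WT share in both preparations, with intervals that did not overlap, and the whole-cornea KO share was far above the share among the keratocytes of the KO CRIC library. The gates did not cover marker RNA alike in the 2 KO libraries of 6 months. Cells outside the keratocyte, epithelial and immune gates used below held 40.7% of Saa3 UMIs in KO CRIC and 1.38% in KO cornea. For Chil1 these shares were 10.8% and 1.36%. The intervals cover counting error only. With 1 library per group the differences have no replicate check and were not tested.

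The KO cornea library was the shallower of its pair, and with each cell thinned to 1000 UMIs, leaving out shallower cells, the share was 22.9% of 6497 cells in KO and 0.0648% in WT cornea. For CRIC the thinned shares were 1.88% in KO and 0.134% in WT, the latter 1 of 747 cells. At equal depth both KO shares stayed above the WT share of the same preparation, while the intervals of the 2 WT libraries overlapped. Under a stricter rule of at least 3 markers with at least 6 UMIs, the shares at 6 months were 16.4% in KO cornea, 0.0536% in WT cornea, 0.944% in KO CRIC and 0 in WT CRIC, and both 2-month libraries were at 0. The 0 of WT CRIC rests on 863 cells.

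**Figure D1:**
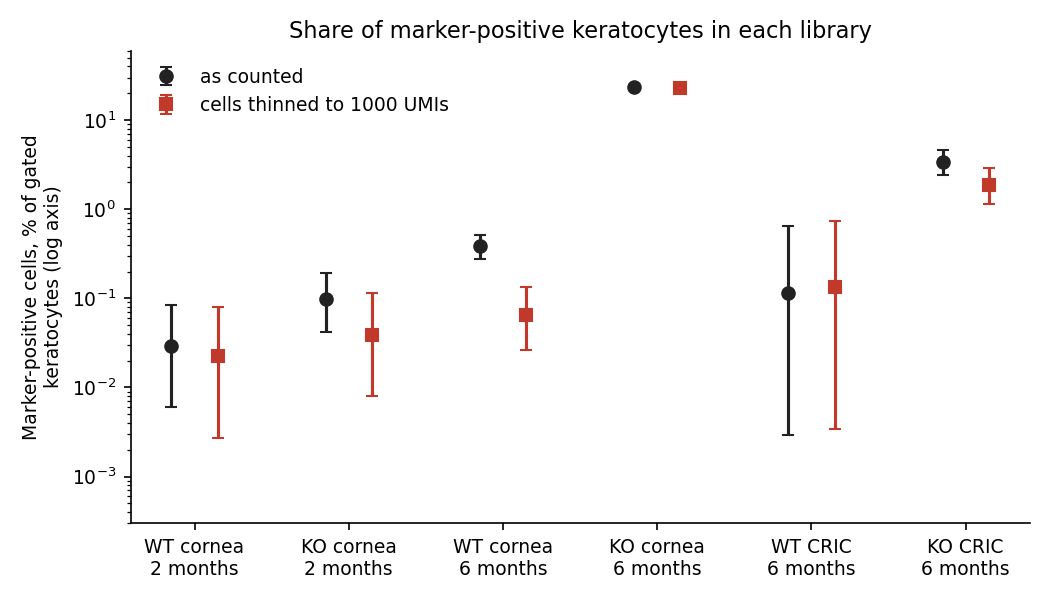
Marker-positive cells as a percentage of gated keratocytes (log axis) in each of the 6 libraries, as counted (circles) and with each cell thinned to 1000 UMIs (squares), with 95% exact binomial intervals that cover counting error only. KO cornea at 6 months stands at 23.4% and KO CRIC at 3.40%, and the other 4 libraries lie below 0.4%.

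The 4 markers were not equally common within the class, which is a description since they chose the cells. In KO cornea at 6 months Chil1 was detected in 97.4% of marker-positive cells, Saa3 in 92.3%, Lcn2 in 70.6% and Mmp3 in 38.4%. In KO CRIC the order was Chil1 (97.2%), Lcn2 (72.2%), Saa3 (44.4%) and Mmp3 (36.1%). In WT cornea at 6 months it was Chil1 (43 of 43 cells), Lcn2 (48.8%), Saa3 (46.5%) and Mmp3 (20.9%). Chil1 was thus the near-constant member of the set and Mmp3 the least common in all 3 libraries. Of the 2007 cells in KO cornea, 573 had 2 markers, 887 had 3 and 547 had all 4. The most frequent combination was Saa3 with Lcn2 and Chil1, found in 704 cells, followed by all 4 markers and then by Saa3 with Chil1 alone, in 394 cells.

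Scaled to 1000000 UMIs of the class (CPM, with 95% exact Poisson intervals), Saa3 reached 12072 (11967 to 12177) in marker-positive cells of KO cornea at 6 months, against 3957 (3653 to 4279) in KO CRIC and 1948 (1787 to 2120) in WT cornea. Chil1 stood at 7086 CPM in KO cornea, 2467 in KO CRIC and 736 in WT cornea. Mmp3 stood at 2117, 915 and 43.5 CPM and Lcn2 at 1480, 751 and 631 CPM in the same order. Among these 3 libraries all 4 levels were highest in KO cornea and lowest in WT cornea, in cells that the same genes chose. The rule asks for a fixed number of UMIs, so a shallower cell needs a higher CPM to enter, and the marker-positive cells had a median of 1984 UMIs in KO cornea, 4548.5 in KO CRIC and 6367 in WT cornea. The 3 cells of WT cornea at 2 months had Mmp3 at 2903 CPM, on 30 UMIs. In WT cornea the Saa3 level came mostly from 2 of the 43 cells, which held 409 of its 537 UMIs, and in KO CRIC 2 of the 36 cells held 549 of 627. In KO cornea 262 cells had 100 or more marker UMIs.

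At the threshold of the rule in KO cornea, 51 keratocytes had 2 markers with 2 UMIs and lay just outside, and 60 had at least 2 markers with 3 UMIs and lay just inside. A further 215 had 3 or more UMIs of 1 marker, which was Chil1 in 177. Of the marker-positive cells, 329 had 4 to 9 marker UMIs and 1356 had 10 to 99, so most were well inside. In WT cornea at 6 months, 8 of the 43 marker-positive cells had 3 marker UMIs, 19 had 4 to 9 and 14 had 10 to 99. Most of those lay near the threshold.

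The marker RNA of KO cornea at 6 months sat mostly in these keratocytes. Marker-positive cells held 97.6% of the Saa3 UMIs of all cells past the filters, 98.2% of Mmp3, 95.2% of Lcn2 and 92.9% of Chil1. The shares were lower in the other 2 libraries with at least 10 such cells. In KO CRIC marker-positive cells held 54.2% of the Saa3 UMIs, 47.9% of Chil1, 35.7% of Lcn2 and 35.5% of Mmp3, and cells outside the keratocyte, epithelial and immune gates held 40.7% of Saa3, 53.5% of Lcn2 and 57.2% of Mmp3. In WT cornea at 6 months they held 88.3% of Saa3, 11.2% of Lcn2, 10.7% of Chil1 and 3.50% of Mmp3. There epithelial cells held 74.7% of all Lcn2 UMIs, and keratocytes of the between class held 85.1% of Chil1 and 95.9% of Mmp3. In KO cornea epithelial cells, gated as the mirror image of keratocytes, stood at 6.82 CPM for Saa3 and immune cells at 71.2 CPM. The same 2-marker rule was met by 6 of 2041 epithelial cells (0.294%, 0.108% to 0.639%, median 4282 UMIs) and by 0 of 285 immune cells (median 1097 UMIs), for which 3 counts of the total give a limit of 1.05% and the exact (Clopper-Pearson) interval an upper bound of 1.29%. Marker-positive keratocytes had a median of 1984 UMIs. RNA outside cells, read from barcodes of at most 100 UMIs, held Saa3 at 1117 CPM and Chil1 at 1015 CPM in this library, against 2.69 and 14.7 CPM in WT cornea at 6 months. Free RNA of these genes was therefore present. The epithelial cells of the same library lay far below its Saa3 level, but free RNA can be only a part of a cell's UMIs. This comparison therefore does not measure free RNA in keratocytes, and its part there was not tested. By definition marker-negative cells had none.

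**Figure D2:**
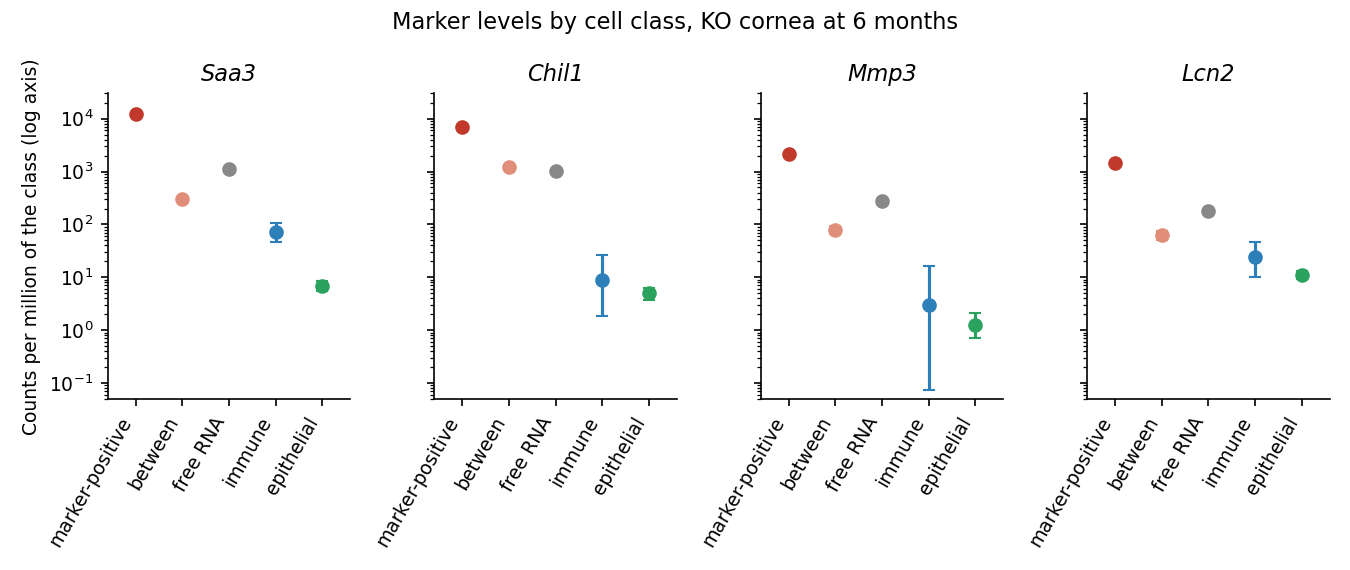
Level of each marker in CPM (log axis) in the KO cornea library of 6 months, for marker-positive keratocytes, the between class, free RNA, immune cells and epithelial cells, with 95% exact Poisson intervals that cover counting error only. Marker-positive cells are highest for all 4 genes, by the rule that chose them, and epithelial and immune cells lie below free RNA for all 4.

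Whether the markers went together was read by choosing cells on 3 of them and looking at the fourth, in cells thinned to 1000 UMIs. In KO cornea at 6 months Saa3 was detected in 91.2% of 1066 cells chosen by the other 3, against 2.17% of 4523 cells with none of the other 3. Lcn2 was detected in 61.2% against 0.673%. Chil1 was detected in 96.4% against 8.14%, and Mmp3 in 32.9% against 0.718%. Each marker was thus far more frequent where the others were present. In KO CRIC the same held on few cells, with Saa3 in 4 of 13 against 0.644%, Lcn2 in 4 of 10 against 0.430% and Mmp3 in 4 of 17 against 0.537%. Cells are not replicates, so no p is given.

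To ask what else set these cells apart, UMIs were added up within each class of each library, and marker-positive sums were compared with marker-negative sums in the 3 libraries with at least 10 cells of each class: WT cornea, KO cornea and KO CRIC, all of 6 months. The edgeR quasi-likelihood test with the library as a block left 2 residual degrees of freedom, and the 14 genes of the gate were left out of the genes tested. Of 11417 genes tested, 97 were higher (0.85%) and 35 lower (0.307%) in marker-positive cells at a Benjamini-Hochberg adjusted p under 0.05. These percentages are the background for every list below. A gene nearly absent from 1 class passed the filter on low counts only through the other class, so its direction was largely fixed by its entry. Saa2 and Mmp12 entered in this way through marker-positive cells, and the list counts and medians below include such genes. Of the 132 called genes, 130 had the fitted direction in KO cornea, 121 in KO CRIC and 108 in WT cornea, and 96 had it in all 3. Without the KO cornea library, 22 genes were called, 16 higher and 6 lower, of which 19 were among the 132. DESeq2 called 65 genes, all among the 132. The marker-positive sums held 4245348 UMIs in KO cornea, 275645 in WT cornea and 158469 in KO CRIC, so most of the precision came from 1 library. Standard errors (SE) share variance across genes and were often smaller than the spread between the 3 libraries.

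Acute-phase and antimicrobial genes were the list with the largest median log2 fold, counting genes that entered through marker-positive cells. Of 24 such genes beside the markers, 10 passed the filter on low counts, 6 were higher and 0 lower, with a median log2 fold of 2.04 against -0.06 over all genes tested. Saa2 and Serpina3g, counted here, were nearly absent from marker-negative cells of KO cornea and KO CRIC, so they could hardly be called lower. Their log2 folds of 8.77 and 6.81 raise the median, and a median without them was not computed. The tested genes not called, Lyz2, Ltf, Pglyrp1 and S100a9, had log2 folds from -0.02 to -1.59. Of the 6 called genes, 4 had the same direction in all 3 libraries. Without KO cornea 2 of 6 tested were called, Serpina3n and Steap4. Serpina3n, a secreted inhibitor of serine proteases, stood at 457 against 20.4 CPM in WT cornea, 2443 against 40.4 in KO cornea and 839 against 35.1 in KO CRIC. Its log2 fold was 5.03 (SE 0.21, adjusted p = 1.69e-120), higher in 3 of 3 libraries and called with the KO cornea library left out. It was detected in 91.5% of marker-positive cells of KO cornea against 4.79% of marker-negative cells, and in 79.1% against 7.86% in WT cornea. Serpina3n was therefore as widely shared among the members as the markers themselves. Slpi, an antiprotease with antimicrobial action, stood at 707 against 7.82 CPM in KO cornea and 75.7 against 6.39 in KO CRIC. In WT cornea it stood at 43.5 against 6.58 CPM, but all 12 UMIs came from the 2 cells with 100 or more marker UMIs. Its log2 fold was 4.81 (SE 0.30, adjusted p = 5.43e-55), and 3.11 without KO cornea (adjusted p = 0.0568).

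Cp, the copper-carrying ferroxidase ceruloplasmin, stood at 563 against 19.1 CPM in KO cornea, 63.1 against 18.9 in KO CRIC and 18.1 against 16.3 in WT cornea, so its difference was large in 1 library and nearly absent in WT (log2 fold 3.10, SE 0.29, adjusted p = 1.13e-23). DESeq2 did not call it (adjusted p = 1), nor did edgeR without KO cornea (log2 fold 0.99, adjusted p = 1). Saa2, a close relative of Saa3, had 79 UMIs in marker-positive cells of KO cornea and 39 in KO CRIC against 0 in the marker-negative cells of both. In KO CRIC all 39 Saa2 UMIs sat in 2 cells. Steap4, a metalloreductase, rose modestly from a high base, with 2193 against 1301 CPM in KO cornea, 3092 against 896 in KO CRIC and 1397 against 1003 in WT cornea (log2 fold 0.98, SE 0.17, adjusted p = 2.77e-06). Serpina3g was the other gene called, on 131 against 1 UMIs in KO cornea and 2 against 1 in KO CRIC. Reads of the Saa and Serpina3 families can be split between near-identical copies, so the identity of single members is uncertain.

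Among complement genes, 2 of 8 tested were higher and 0 lower, with a median log2 fold of 0.59. Serping1, the C1 inhibitor, stood at 2386 against 1185 CPM in KO cornea, 1545 against 1042 in WT cornea and 1571 against 1002 in KO CRIC (log2 fold 0.73, SE 0.17, adjusted p = 0.00244). It was not called without KO cornea (log2 fold 0.60). The component genes C1ra (adjusted p = 0.27) and C1s1 (adjusted p = 1) did not pass the test.

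Chemokines had the next largest median log2 fold, 1.89, and 6 of 12 tested were higher and 0 lower. Both the count and the median include Ccl5 and Ccl7 (log2 folds 6.47 and 3.39), whose direction did not hold in all 3 libraries. The other 4 called genes had the same direction in all 3. Without KO cornea 2 of 10 tested were called, Ccl8 and Cxcl1. Ccl8, a monocyte chemoattractant, stood at 352 against 8.25 CPM in WT cornea, 266 against 9.07 in KO cornea and 896 against 16.0 in KO CRIC. Its log2 fold was 5.33 (SE 0.23, adjusted p = 1.27e-118), with no library far from the others, and it was called without KO cornea (log2 fold 5.59, adjusted p = 9.13e-79). It was detected in 28.2% of marker-positive cells of KO cornea, 25.6% in WT cornea and 58.3% in KO CRIC, against 1.20% to 3.90% of marker-negative cells. In WT cornea the Ccl8 UMIs sat in 11 cells, none of them the 2 with 100 or more marker UMIs. Ccl8 was thus the chemokine whose difference was alike in WT and KO cells.

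Ccl2, which attracts monocytes, stood at 571 against 36.8 CPM in KO cornea, 139 against 36.6 in KO CRIC and 68.9 against 33.8 in WT cornea (log2 fold 2.60, SE 0.24, adjusted p = 2.94e-23), and was not called without KO cornea (log2 fold 1.46, adjusted p = 0.114). Cxcl1, a neutrophil attractant, stood at 440 against 54.4 CPM, 221 against 41.2 and 58.0 against 47.8 in the same order (log2 fold 2.14, SE 0.23, adjusted p = 2.05e-17). The negative cells of the 3 libraries held these 2 genes at like levels, and the positive cells differed. Cxcl2, of the same kind, had a log2 fold of 2.99 (SE 0.53, adjusted p = 6.68e-06) on 311 UMIs in KO cornea and 2 in each of the other 2 libraries. Ccl7 stood at 169 against 5.01 CPM in KO cornea and at 0 UMIs in WT cornea. Ccl5 was called on 21 UMIs in 3 cells of WT cornea and 25 UMIs in KO cornea. Immune cells of the same libraries carried Cxcl2 at 1452 to 2361 CPM and Ccl2 at 401 to 829 CPM. The part of RNA from immune cells in these differences was not tested, but the defining immune genes are given with the cell type lists below.

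Cytokines and growth factors were a contrast to the chemokines, since 0 of 10 tested were called by edgeR (2 at an unadjusted p under 0.05, median log2 fold 0.56) and 0 by DESeq2. The nearest were Vegfa (log2 fold 0.82, adjusted p = 0.0692) and the macrophage growth factor Csf1 (1.33, adjusted p = 0.102). Most genes of the list did not pass the filter on low counts: Il6 had 1 UMI and Lif 4 UMIs in all 2007 marker-positive cells of KO cornea, and Il33 had 0. Among receptors and adaptors, 2 of 20 were higher and 0 lower (median log2 fold 0.56), and both belong to the receptor of oncostatin M. Il6st, the shared signalling subunit gp130, stood at 556 against 268 CPM in KO cornea, 334 against 180 in KO CRIC and 254 against 204 in WT cornea (log2 fold 0.76, SE 0.19, adjusted p = 0.00907). Osmr, its specific partner, stood at 61.0 against 16.6 CPM, 44.2 against 13.4 and 18.1 against 12.9 in the same order (log2 fold 1.53, SE 0.40, adjusted p = 0.0158). DESeq2 called neither (adjusted p = 0.0735 and 0.109), and without KO cornea edgeR called 0 of 16 receptors and adaptors.

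Of 20 genes of NF-kB and its feedback, 2 were higher and 0 lower, with a median log2 fold of 0.53. Without KO cornea edgeR called 0 of 18 (Vcam1 with a log2 fold of 0.81 and an adjusted p of 0.224, Sod2 with 0.88 and 0.315). Vcam1, an adhesion molecule for leukocytes, stood at 505 against 294 CPM in KO cornea, 486 against 253 in KO CRIC and 464 against 284 in WT cornea (log2 fold 0.80, SE 0.18, adjusted p = 0.0024). Sod2, the mitochondrial superoxide dismutase, stood at 278 against 104 CPM, 265 against 89.1 and 152 against 128 (log2 fold 1.11, SE 0.21, adjusted p = 2.56e-05). The feedback inhibitor Tnfaip3 stood at 48.1 against 12 CPM in KO cornea and at 1 UMI in WT cornea, and was not called (adjusted p = 0.315). Of 14 genes of STAT3, SOCS and C/EBP, 1 was higher (median log2 fold 0.15). This was Cebpd, a C/EBP factor of the acute-phase response (log2 fold 0.99, SE 0.20, adjusted p = 0.000293), at 231 against 123 CPM in KO cornea and 372 against 83.6 in KO CRIC, but 138 against 142 in WT cornea. Without KO cornea 0 of 12 genes of this list were called (Cebpd at an adjusted p of 0.0568), and DESeq2 called 0 with all libraries. Socs2 had a log2 fold of 1.18 (adjusted p = 0.051).

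Timp1, a secreted inhibitor of metalloproteinases, had the largest fold of the called genes with the same direction in 3 of 3 libraries. It stood at 598 against 3.23 CPM in KO cornea, 133 against 2.32 in KO CRIC and 43.5 against 0.469 in WT cornea, with a log2 fold of 6.97 (SE 0.33, adjusted p = 6.80e-95). It was detected in 40.0% of marker-positive cells of KO cornea and 38.9% of KO CRIC, against 0.530% and 0.803% of marker-negative cells. In WT cornea its 12 UMIs came from 2 of 43 cells. It was called without KO cornea (log2 fold 6.18, adjusted p = 1.91e-06). Of the 20 proteases and inhibitors tested, 3 were higher and 1 lower, with a median log2 fold of 0.35, and Timp1 was the 1 gene of 18 called without KO cornea.

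Mmp12, macrophage elastase, stood at 702 against 1.04 CPM in KO cornea, where 2982 UMIs sat in 450 of 2007 cells. It had 1 UMI in the marker-positive cells of WT cornea and 0 in those of KO CRIC, where 3 counts would be 18.9 CPM, so its call (log2 fold 8.77, SE 0.47, adjusted p = 4.52e-74) rests on 1 library and DESeq2 did not make it (adjusted p = 0.113). Immune cells of KO cornea carried it at 95 CPM, summed over 285 cells. The part of immune RNA in the Mmp12 difference was not tested. Mmp2, the gelatinase of stromal cells, stood at 1240 against 550 CPM in KO cornea, 764 against 386 in KO CRIC and 483 against 436 in WT cornea (log2 fold 0.77, SE 0.18, adjusted p = 0.00244). Mmp9, the other gelatinase, was lower, at 1.41 against 17.1 CPM in KO cornea with 1 UMI in WT cornea and 0 in KO CRIC (log2 fold -3.23, SE 0.90, adjusted p = 0.0317).

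Of 16 genes of prostaglandin synthesis and oxidative stress, 4 were higher and 0 lower, each in 3 of 3 libraries, with a median log2 fold of 0.15. The metallothioneins Mt1 and Mt2, which bind zinc and copper, had log2 folds of 1.29 (SE 0.18, adjusted p = 3.43e-10) and 1.58 (SE 0.19, adjusted p = 2.30e-13). Mt1 stood at 686 against 314 CPM in WT cornea, 405 against 190 in KO cornea and 1029 against 310 in KO CRIC, and both genes were called without KO cornea. Their sequences are alike, so reads may be split between them. Sod3, the extracellular superoxide dismutase, stood at 509 against 142 CPM in KO cornea and 236 against 169 in WT cornea (log2 fold 1.10, SE 0.20, adjusted p = 7.58e-06). Ptgs2, the inducible cyclooxygenase, stood at 283 against 151 CPM in WT cornea, 275 against 144 in KO cornea and 196 against 121 in KO CRIC (log2 fold 0.86, SE 0.20, adjusted p = 0.00249). With cells matched on depth Ptgs2 had a log2 fold of 0.53 and was not called (adjusted p = 0.301).

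Of 26 interferon-response genes, 4 were higher and 0 lower, with a median log2 fold of 0.45. Ifi27l2a stood at 231 against 67.4 CPM in KO cornea, 243 against 98.1 in WT cornea and 1010 against 211 in KO CRIC (log2 fold 1.78, SE 0.19, adjusted p = 1.90e-17). The class I histocompatibility genes H2-K1 (log2 fold 0.96, SE 0.19, adjusted p = 0.000118) and H2-D1 (0.76, SE 0.18, adjusted p = 0.0024) were higher in 3 of 3 libraries, with the reservation that their sequences are alike. Gbp2 was called on 93 UMIs in KO cornea and 2 in each other library. Ifi27l2a and H2-K1 were called without KO cornea. Most of the list, 22 of 26 genes, was not called.

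Of 24 glycolysis and hypoxia genes, 1 was higher, Bnip3, a mitophagy receptor (log2 fold 0.94, SE 0.27, adjusted p = 0.047), with 32.7 against 41.9 CPM in WT cornea going the other way. Gapdh (0.59, adjusted p = 0.0692) and Eno1 (0.77, adjusted p = 0.0715) missed the threshold. Of 20 genes of the unfolded protein response and secretion, Pdia6, a disulfide isomerase, was higher (log2 fold 0.68, SE 0.19, adjusted p = 0.0287) and Trib3, a stress pseudokinase, lower (-0.95, SE 0.24, adjusted p = 0.00954). Of 23 immediate-early and dissociation genes, 0 were called by edgeR or DESeq2 and 0 had an unadjusted p under 0.05, with a median log2 fold of -0.03. Of 7 cell cycle genes tested of 21, 0 were called by edgeR or DESeq2 and 0 had an unadjusted p under 0.05. Without KO cornea none of the genes of these 4 lists was called.

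**Figure D3:**
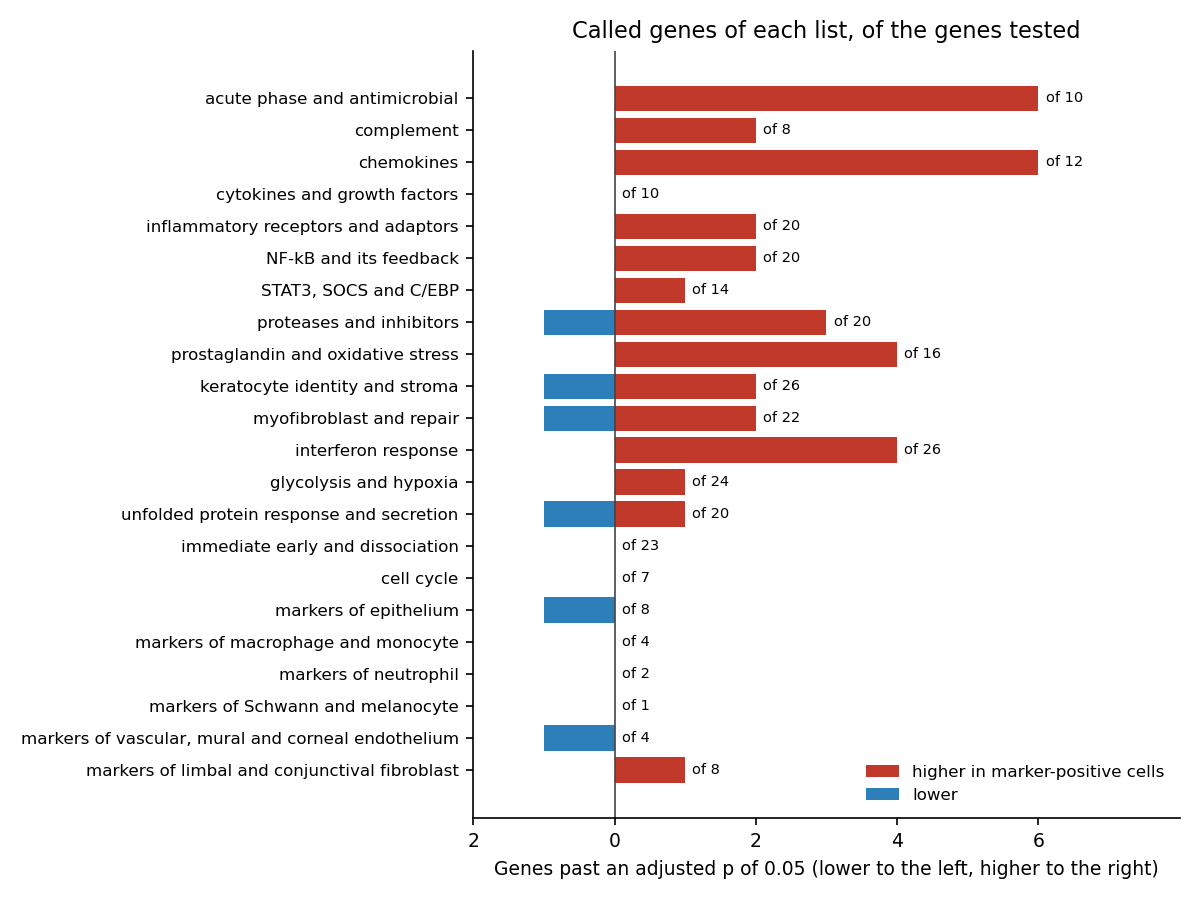
Number of genes of each list that were higher (right) or lower (left) in marker-positive than in marker-negative keratocytes at an adjusted p under 0.05 (edgeR, 3 libraries), with the number tested beside each bar. Acute-phase genes (6 of 10) and chemokines (6 of 12) have the longest bars, against 0.85% of all 11417 genes called higher. The counts include genes that passed the filter on low counts only through marker-positive cells.

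Of the keratocyte genes outside the gate, Aldh3a1 and Col1a1 stayed abundant. Aldh3a1, the corneal crystallin, stood at 3450 against 4128 CPM in KO cornea, 4263 against 4770 in WT cornea and 2783 against 4199 in KO CRIC, and was not called (adjusted p = 0.796). Col1a1, the main fibrillar collagen chain, stood at 7426 against 7633 CPM in KO cornea (adjusted p = 1). Of 26 genes of keratocyte identity and stroma, 2 were higher and 1 lower, with a median log2 fold of 0.01. At an unadjusted edgeR p under 0.05 there were 8. Prelp, a small leucine-rich proteoglycan, stood at 681 against 354 CPM in KO cornea, 504 against 346 in WT cornea and 473 against 364 in KO CRIC (log2 fold 0.63, SE 0.18, adjusted p = 0.047). Its relative Aspn stood at 48.5 against 0.730 CPM in KO cornea, at 1 UMI in KO CRIC and at 0 in WT cornea (log2 fold 4.52, SE 0.79, adjusted p = 4.11e-06). Angptl7, a secreted protein of the keratocyte, was lower (log2 fold -0.75, SE 0.17, edgeR adjusted p = 0.00172). It stood at 2217 against 3644 CPM in KO cornea, 1615 against 4395 in KO CRIC and 5253 against 5636 in WT cornea. In WT cornea the 2 cells with 100 or more marker UMIs held 0 Angptl7 UMIs and the other 41 held 1448. In KO CRIC the 2 such cells held 0 and the other 34 held 256.

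Of 22 myofibroblast and repair genes, 2 were higher and 1 lower, with a median log2 fold of 0.29. Lox, the enzyme that crosslinks collagen, stood at 344 against 145 CPM in KO cornea, 328 against 125 in KO CRIC and 149 against 108 in WT cornea (log2 fold 1.05, SE 0.20, adjusted p = 5.00e-05). Lama4, a laminin chain, stood at 62.9 against 4.38 CPM in KO cornea, at 2 UMIs in KO CRIC and at 0 in WT cornea (log2 fold 3.26, SE 0.62, adjusted p = 3.15e-05). Cthrc1, a secreted protein of repairing fibroblasts, was lower, at 46.2 against 107 CPM in KO cornea (log2 fold -1.0, SE 0.24, adjusted p = 0.00405). Acta2, the smooth muscle actin of the contractile myofibroblast, had 18 UMIs in all 2007 cells of KO cornea and was not called (adjusted p = 1). Neither list had a gene called without KO cornea.

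Among called genes with the same direction in all 3 libraries and at least 20 CPM in a class, the largest lower folds were those of Klra4 and Klra8, which encode Ly49 receptors known from natural killer cells. Klra4 stood at 7.30 against 148 CPM in KO cornea, 0 UMIs against 108 CPM in WT cornea and 82.0 against 86.2 CPM in KO CRIC (log2 fold -3.36, SE 0.33, adjusted p = 1.43e-21). Klra4 was not called without KO cornea (log2 fold -1.66, adjusted p = 0.0592) or by DESeq2 (adjusted p = 0.809). Klra8 stood at 10.6 against 137 CPM, 18.1 against 103 and 37.9 against 96.1 in the same order (log2 fold -3.10, SE 0.32, adjusted p = 8.18e-20), and was called without KO cornea (log2 fold -1.95, adjusted p = 0.0115). Both were detected in marker-negative keratocytes, in 10.3% to 20.5% of cells, and at 0 to 9.10 CPM in immune cells. These family members are near-identical, so which copy the reads came from is uncertain.

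Among the other lower genes, Abca8a and Crabp2 differed less in WT cornea than in the 2 KO libraries. Abca8a, a lipid transporter of the ABC family, stood at 110 against 409 CPM in KO cornea, 75.7 against 236 in KO CRIC and 247 against 326 in WT cornea (log2 fold -1.30, SE 0.21, adjusted p = 2.47e-07). Crabp2, which carries retinoic acid to its receptor, stood at 43.8 against 168 CPM, 31.6 against 109 and 167 against 192 in the same order (log2 fold -1.25, SE 0.24, adjusted p = 3.02e-05). Both were closer to the marker-negative level in WT cornea, and the difference between genotypes was not tested. Marker load differed too: thinned to 1000 UMIs, 7 of 10796 keratocytes met the rule in WT cornea and 1485 of 6497 in KO cornea. The part of marker load in these differences was not tested. Gfod2 was lower in each library, at 31.3 against 85.0 CPM, 12.6 against 187 and 21.8 against 91.5, and without KO cornea (log2 fold -2.78, adjusted p = 1.91e-06). Htr5b, Cpxm1, Sord and Pcdh11x were also among the 10 largest lower folds, with log2 folds from -1.13 to -2.92, and none of these 4 was called without KO cornea.

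Among the largest higher folds were genes best known from macrophages: Fcgr2b, an inhibitory Fc receptor (log2 fold 5.04, SE 0.71, adjusted p = 5.11e-10), and Mpeg1, a pore-forming protein (3.77, SE 0.37, adjusted p = 9.02e-22). Mpeg1 stood at 163 against 6.88 CPM in KO cornea, 50.5 against 5.81 in KO CRIC and 25.4 against 4.33 in WT cornea, and immune cells of these libraries carried it at 116 to 143 CPM. Fcgr2b stood at 57.0 against 0.939 CPM in KO cornea, where immune cells carried 514 CPM. In marker-positive cells it had 1 UMI in WT cornea and 3 in KO CRIC, and it could not be tested without KO cornea. Over the 14 macrophage and monocyte markers the summed level in marker-positive cells was 22.6 CPM in KO cornea, 18.9 in KO CRIC and 72.6 in WT cornea, against 29.5, 67.9 and 27.5 in marker-negative cells and 30456 to 55879 in immune cells. Of 4 of these markers tested, 0 were called by edgeR or DESeq2 and 0 had an unadjusted p under 0.05. The part of immune RNA in these differences was not tested. In marker-positive cells Ptprc and Adgre1 were at 0 UMIs in 3 of 3 libraries, Csf1r at 14 UMIs and C1qa at 6 UMIs in KO cornea. The gate itself had removed cells with more than 1 UMI of Tyrobp, Fcer1g and Cd74. Dram1, a p53 target in autophagy, was also high (log2 fold 4.54, SE 0.64, adjusted p = 4.87e-10) and was called without KO cornea. That call rested on few UMIs. Marker-positive cells of WT cornea held 4, and in KO CRIC 34 cells held 5 and the 2 with 100 or more marker UMIs held 1.

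For the other lists of neighbouring cell types, 0 of 2 neutrophil genes and 0 of 1 Schwann and melanocyte gene were called by edgeR or DESeq2 (1 and 0 at an unadjusted p under 0.05), and none of the 11 lymphoid genes passed the filter. Summed neutrophil markers stood at 12.5 to 21.8 CPM in marker-positive cells. Among 8 epithelial markers Psca was lower (log2 fold -0.80, SE 0.23, adjusted p = 0.0343), at 308 against 1054 CPM in WT cornea, 193 against 214 in KO cornea and 12.6 against 9.87 in KO CRIC. With cells matched on depth its log2 fold was 0.13. Summed epithelial markers stood at 257 CPM in marker-positive and 286 in marker-negative cells of KO cornea, against 80146 in its epithelial cells. Among 4 vascular, mural and endothelial markers Kdr was lower (log2 fold -0.92, SE 0.22, adjusted p = 0.00337), and among 8 limbal and conjunctival fibroblast markers Mfap5 was higher (2.26, SE 0.41, adjusted p = 8.29e-06), with 360 UMIs in KO cornea, 11 in KO CRIC and 0 in WT cornea. In KO cornea the 2 classes were alike in median mitochondrial share (2.92% and 2.98%).

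**Figure D4:**
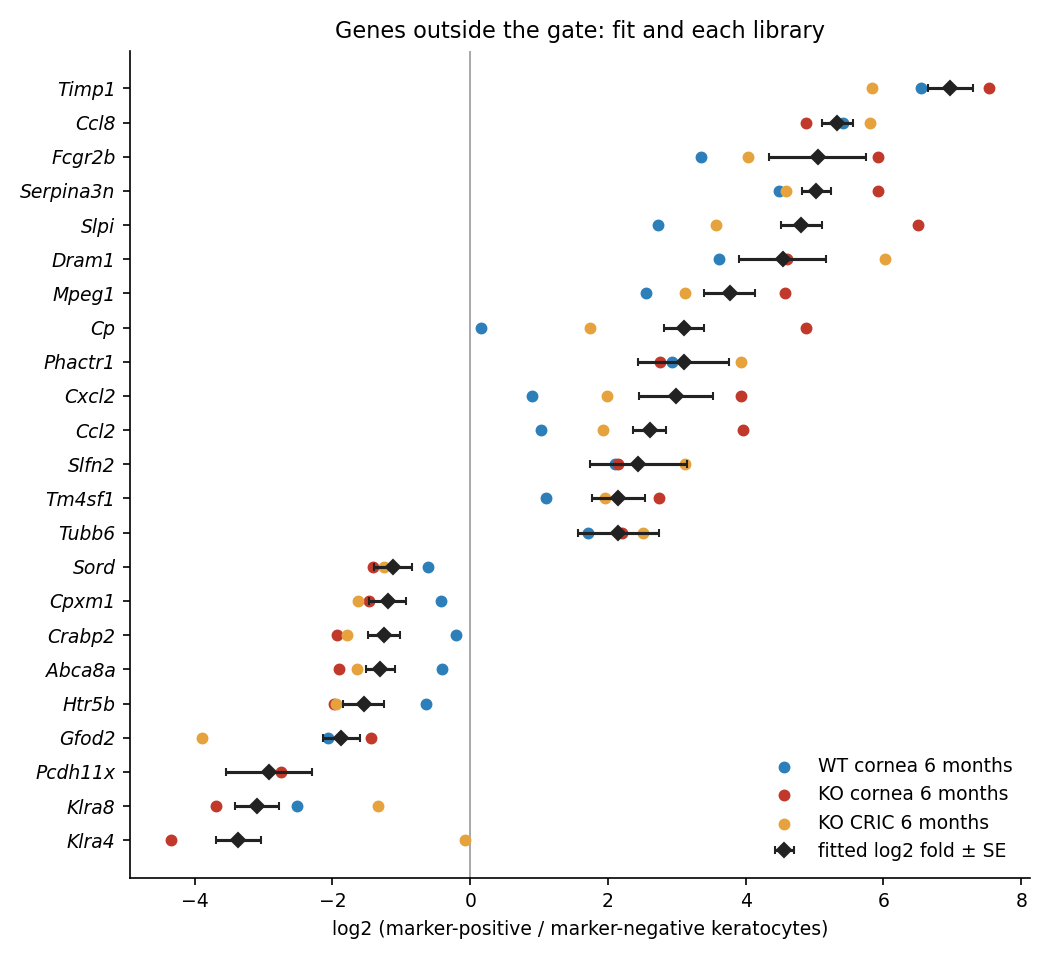
Log2 ratio of marker-positive to marker-negative keratocytes for genes among the 15 largest higher and 10 largest lower folds called with the same direction in all 3 libraries. Diamonds with bars are the fitted log2 fold and its SE, coloured points the 3 libraries, and a library whose class has 0 counts has no point. Ccl8 has its 3 libraries close together, while Cp has WT cornea near 0 and KO cornea highest.

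Of the 25 genes with these largest folds, 24 could be tested without KO cornea and 6 were then called: Timp1, Ccl8, Serpina3n, Dram1, Klra8 and Gfod2. DESeq2 called 19 of the 25. With cells of the 2 classes matched on depth within each library, 18 of the 25 could be tested and all 18 were called. Phactr1, Slfn2, Tm4sf1 and Tubb6, also among the 15 largest higher folds, had log2 folds from 2.15 to 3.10.

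Marker load ran across the threshold of the rule without a gap. In KO cornea at 6 months keratocytes of at least 1000 UMIs were binned by their marker UMIs after thinning to 1000, and levels were read from all UMIs of the cells in a bin. The bins of 0, 1 to 2, 3 to 9, 10 to 29 and 30 or more marker UMIs held 4425, 420, 440, 790 and 422 cells. Serpina3n stood at 48.2, 576, 1604, 2455 and 3069 CPM in these bins. Most of its range was passed by the third bin. Slpi stood at 8.35, 16.3, 191, 501 and 1540 CPM and Mmp12 at 1.11, 5.01, 119, 660 and 1319 CPM. Both were concentrated in the cells with the most marker RNA. Ccl8 stood at 10.8, 67.6, 173, 278 and 347 CPM and Ccl2 at 38.2, 104, 139, 517 and 1119 CPM. Timp1 stood at 2.89, 22.5, 211, 507 and 1150 CPM. All 6 genes had their lowest level in the bin of 0 and their highest in the bin of 30 or more.

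The lower genes ran the other way along the same bins. Klra4 stood at 162, 43.8, 13.8, 8.09 and 1.72 CPM in the order of the bins. Abca8a stood at 412, 317, 169, 115 and 72.3 CPM. The summed level of cells with 1 to 2 marker UMIs per 1000 lay between the extremes for Klra4 and Serpina3n. Each level was summed over a bin, so intermediate cells and a mixture of high and low cells cannot be told apart. Median depth was 1972 UMIs in the bin of 0 and 2640.5 in that of 30 or more. Since the bins use the markers, these levels are a description.

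**Figure D5:**
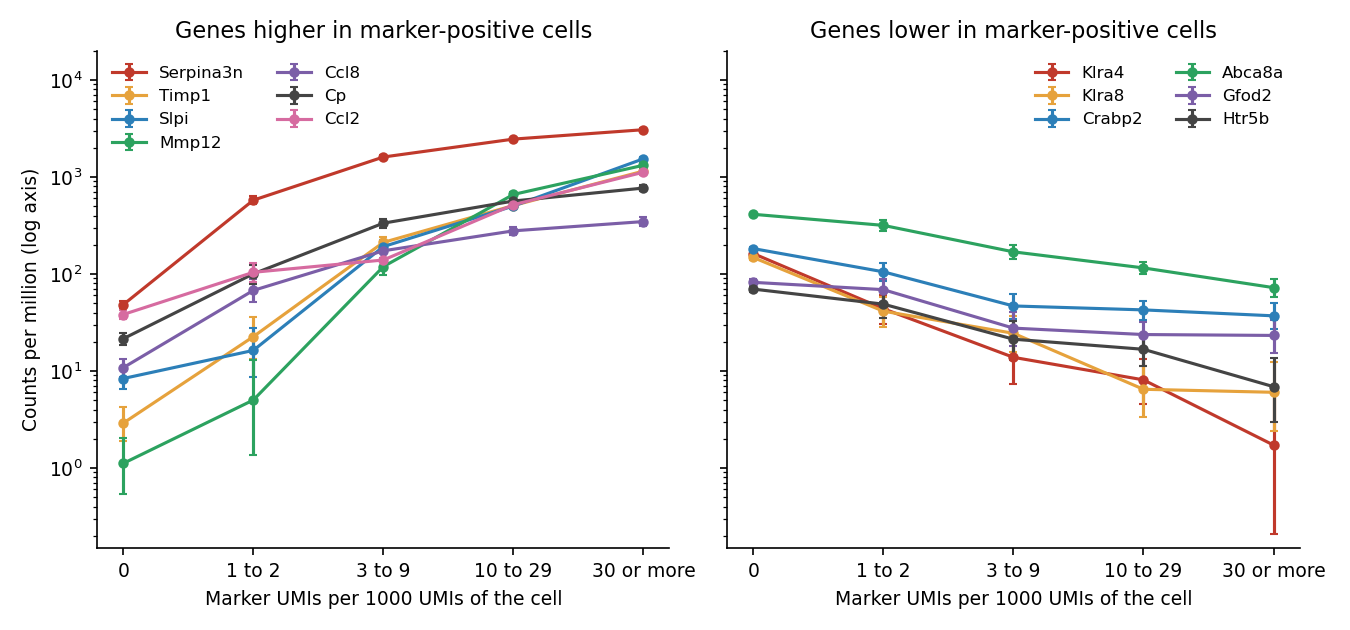
Level of 7 higher and 6 lower genes in CPM (log axis) across 5 bins of marker UMIs per 1000 UMIs in keratocytes of the KO cornea library of 6 months, with 95% exact Poisson intervals that cover counting error only. The higher genes climb from the bin of 0 to that of 30 or more, Serpina3n from 48.2 to 3069 CPM, and the lower genes descend, Klra4 from 162 to 1.72 CPM.

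Marker-positive cells were also split by the detection of Mmp3. Among marker-positive cells of KO cornea with at least 1000 UMIs, 518 carried Mmp3 after thinning to 1000 UMIs and 1103 did not. The cells with Mmp3 stood at 17201 CPM for Saa3 against 9643 without it, at 904 against 468 for Timp1 and at 1143 against 528 for Slpi. Chil1 (6875 against 7428 CPM), Ccl8 (268 against 279 CPM) and Ccl2 (628 against 602 CPM) were at like levels in both. Klra4 was at 1.5 against 11.1 CPM, on 2 and 29 UMIs. Mpeg1 was lower with Mmp3 (137 against 183 CPM) and Crabp2 higher (60.1 against 35.2 CPM). The cells counted as without Mmp3 still held 244 Mmp3 UMIs (93.3 CPM) before thinning. Detection of Mmp3 thus went with more Saa3, Timp1 and Slpi in this library, with no replicate check. A separate kind of cell was not tested for.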

How the data were processed

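Single-cell RNA was measured in 6 libraries, 1 per group. Raw UMI counts per gene and barcode were deposited by the authors. They came from Cell Ranger, version 6.0.1 per the file headers and 2.1.1 per the submitters' processing notes, on build mm10; the annotation release is not given in the sources used here. Barcodes were gated on those counts as described above, with no clustering and no doublet removal. For each library the counts of a class were added up, and the sums were tested with edgeR 4.0.16 (R 4.3.3; TMM factors, filterByExpr, glmQLFit, library as a block) with Benjamini-Hochberg adjustment, and DESeq2 1.42.0 served as an alternative. Shares carry exact Clopper-Pearson intervals and CPM exact Poisson intervals, which cover counting error only. Thinning used Python 3.11.15 with numpy 2.4.6. No source says that libraries came from separate animals, so p-values do not measure variation between animals. They rest on a variance shared across genes, so a small p does not mean that the 3 libraries had like folds. Cp had an edgeR adjusted p of 1.13e-23 with log2 ratios of 0.154 in WT cornea, 4.88 in KO cornea and 1.74 in KO CRIC. On simulated counts of 11363 genes the test called 97% of 100 genes changed by a log2 fold of 2, 32% of 100 changed by 1, and 4 unchanged genes. The simulation gave every library the same mean profile, a fixed dispersion and the same fold, and changed only genes above 20 CPM. It therefore does not give the rate of false calls in the real data, where folds differed between libraries. Named genes were the 4 markers, the 15 largest higher and 10 largest lower folds with 1 direction in all 3 libraries and at least 20 CPM in a class, and up to 4 genes per list with the smallest p. Steap4, Serpina3g, Ccl5, Il6, Lif, Il33, Acta2, Aldh3a1, Col1a1 and the immune genes Ptprc, Adgre1 and Csf1r were named after their values were seen. The cells and the gene lists were chosen with earlier results of these data known. The direction per library was first taken from ratios with a floor of 3 counts and was then corrected to plain CPM. The numbers of cells behind a gene's UMIs and the split at 100 marker UMIs were added after the data were seen. Some genes that met the naming rule are not reported here.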

Additional observations from a re-analysis of the deposited data

Results flagged for a closer look

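Only genes with UMIs in both classes of all 3 libraries were considered. Of these, 2 named genes that were called had opposite directions in the WT library and in both KO libraries. Vegfa, Tnfaip3 and Icam1 were among the named genes not called that also did so. Cebpd, a C/EBP factor, had a log2 ratio of marker-positive to marker-negative cells of -0.0427 in WT cornea at 6 months and was higher in marker-positive cells of KO cornea and KO CRIC. Bnip3, a mitophagy receptor, had a log2 ratio of -0.360 in WT cornea and was likewise higher in both KO libraries. With 1 WT library the difference was not tested for either gene. The restriction to genes with UMIs in every class was chosen after the data were seen.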

How the results depend on the processing

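The 132 genes called became 65 with DESeq2 (57 higher, 8 lower), 33 without the library block (30 higher, 3 lower), 82 with cells matched on depth (61 higher, 21 lower) and 45 under the rule of at least 3 markers and 6 UMIs (38 higher, 7 lower). The higher genes were 73.5% of the calls at first, 87.7% with DESeq2, 90.9% without the block and 84.4% under the stricter rule. Leaving out 1 library gave 22 genes (without KO cornea) to 153 (without KO CRIC). Fewer genes were tested with cells matched on depth (4549) and without KO cornea (9648); for the other settings the cause was not tested. RLE factors (148 genes), no filter (166), gate genes out of the library sizes (132), at least 1000 UMIs (124) and at least 20 cells (132) stayed within 1.5 times. Psca reversed to a log2 fold of 0.13 with cells matched on depth (adjusted p = 0.989). Of the values of 100 named genes under these alternatives, 946 kept their side of the threshold, 159 lost the call and 14 gained a call. For 1 value, of a called gene, the direction reversed. Changes of direction in genes not called were left within the 946, such as Fgf7 (log2 fold 0.86, and -0.25 without KO cornea). With each cell thinned, the marker-positive share was 0.0390% in KO cornea at 2 months, 0.0648% in WT cornea at 6 months and 1.88% in KO CRIC. Under the stricter rule it was 16.4% in KO cornea and 0.0536% in WT cornea at 6 months, 0.944% in KO CRIC, and 0 in WT CRIC and both 2-month libraries. With at least 1000 UMIs it was 24.9% in KO cornea at 6 months. No paired analysis was possible between groups because the labels give no replicate numbers and each group holds 1 library; the 2 classes were paired within libraries by the block. A minimum of 50 cells left 1 library and gave no value, and a genotype test within the marker-positive cells was not run because only 1 pair of libraries had at least 10 of them on both sides.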

Other observations

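Some genes outside the rule for naming, chosen after their values were seen, also differed between the classes. Gpha2, a glycoprotein hormone subunit, stood at 1955 CPM in marker-positive against 178 in marker-negative keratocytes of KO cornea, 745 against 203 in KO CRIC and 512 against 278 in WT cornea (log2 fold 2.1, SE 0.19, adjusted p = 2.95e-24, edgeR). Ifitm1, an interferon-induced membrane protein, stood at 627 against 126 CPM, 1060 against 99.9 and 330 against 253 in the same order (log2 fold 2.06, SE 0.20, adjusted p = 1.08e-22, edgeR). Both were called without KO cornea. Apoe, the lipid carrier, was lower in both KO libraries, at 444 against 2042 CPM in KO cornea and 789 against 2111 in KO CRIC, and stood at 2064 against 2044 CPM in WT cornea. The difference between genotypes was not tested, nor was the part of the lower marker load in WT cornea.

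Saa1, a serum amyloid A gene, C3, the central complement component, and Cxcl5, a neutrophil attractant, did not pass the filter on low counts and have no test. Marker-positive cells of KO cornea held 524 UMIs of Saa1, 317 of C3 and 246 of Cxcl5, against 3, 5 and 3 UMIs in its marker-negative cells. In WT cornea and KO CRIC all 3 genes had 0 UMIs in marker-positive cells, which in classes of 275645 and 158469 UMIs allows levels of up to 10.9 and 18.9 CPM.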
